A study of Sus scrofa with 12 samples.

Results

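Cytokines, chemokines and their receptors were followed through the first 3 weeks of life in pig skeletal muscle. The genes were all those whose symbol in the array's annotation begins with CCL, CXCL, CCR, CXCR, TNFRSF or TNFSF, or with IL followed by a digit, and each was read by the probe set with its highest mean signal over the arrays. The rule gave 66 genes among the 6765 genes with a symbol of their own on the array. They comprised 12 CC chemokines, 7 CXC chemokines, 8 chemokine receptors, 19 interleukins (with the inhibitor IL18BP), 12 interleukin receptors, 3 ligands and 5 receptors of the tumour necrosis factor (TNF) family. A further symbol that shares its 2 probe sets with another gene was left out, since the signal could belong to either.

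Cytokines are secreted or membrane-bound signals between cells. Chemokines are small cytokines that draw white blood cells along a gradient through G-protein-coupled receptors, whereas interleukin receptors mostly act through Janus kinases and STAT factors, and TNF receptors through TRAF adaptors to NF-kB or, for those with a death domain, to caspases. In muscle these signals come from resident and infiltrating white blood cells, from vessels and from the fibres themselves, and several act on muscle precursor cells during growth and repair.

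The 12 Affymetrix arrays came from 4 ages with 3 biological replicates each, taken within a day of birth, called day 0 here, or on day 7, 14 or 21. The labels describe all animals as pigs with no treatment, and give neither the breed, the sex nor which muscle was taken. Signals are arbitrary units of brightness per probe set, scaled by the authors to the same trimmed mean on every array, so levels of different genes are not comparable. The 17 skeletal muscle markers with a symbol on the array were all above the limit for dim probe sets.

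A probe set was called dim when its mean log2 signal lay among the lowest 40% of all probe sets, below a signal of 90.3, and dim at an age when its mean over that age's 3 arrays did. Of the 66 genes, 38 were dim and 28 were tested. The genes nearest the limit were CXCL16 just above it, with a geometric mean signal of 95.0, and IL17B just below it, at 87.5. Changes are log2 differences between age means ± SE from limma, with 3 arrays per age, and adjusted p-values are limma's, adjusted by Benjamini-Hochberg across the 14399 tested probe sets. Because the filter used the mean over all ages, a gene high at only 1 age could pass through that age.

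The control probe sets differed on average between day 0 and the later ages. The hybridization controls, spiked in at fixed amounts, averaged a log2 signal of 12.6 ± 0.126 (SD, n = 9) at the later ages and 12.2 ± 0.092 (SD, n = 3) at day 0 (exact two-sided permutation p = 0.00455, adjusted 0.00909 over 2 measures). The poly-A controls are RNAs added before labelling. The log2 ratio of their 3' over their 5' probe sets averaged 0.510 ± 0.102 (SD, n = 9) at the later ages and 0.982 ± 0.527 (SD, n = 3) at day 0 (exact two-sided permutation p = 0.00909, adjusted 0.00909). In this ratio day 0 replicate 2 reached 1.59. Day 0 replicates 1 and 3, at 0.693 and 0.662, lay beside day 21 replicate 3 at 0.668. On average these 2 measures move with day 0. Their part in the changes from day 0 was not tested beyond the alternative fits given beside each result. In whole tissue, more cells of a type and more RNA per cell cannot be told apart.

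Between day 0 and day 21, 8 of the 28 tested genes rose, 1 fell and 19 did not pass the test. The genes that rose were the chemokines CCL4, CCL5 and CXCL14, the chemokine receptor CXCR4, the interleukin IL15, the TNF ligand TNFSF10 and the TNF receptors TNFRSF1B and TNFRSF21, and the one that fell was the TNF receptor TNFRSF12A. The background was 11.5% of all probe sets tested in either direction, 6.61% higher and 4.9% lower, or 14.5% of the 5296 genes tested, 7.36% higher and 7.1% lower. With median centring the split over all probe sets was 739 higher and 1032 lower, against 952 and 705, and on the hybridization control scale it was 397 and 2486. The median change was 0.55 over the 28 genes and 0.02 over all probe sets. The same 9 genes passed the F test for any change over the 4 ages, which 8.88% of all probe sets and 11.2% of all genes passed. Of the 28, 9 had all 9 later arrays above all 3 day 0 arrays, namely CXCL12 and the 8 genes that rose, where 7.44% of all probe sets and 8.01% of all genes tested did. The 3 values of day 21 and the 3 of day 0 did not overlap in 13 of the 28 (29.1% of all probe sets, 32.2% of all genes), and those of day 7 and day 0 in 10 (28.5% and 32.3%). The count for day 21 became 5 without day 21 replicate 1 or without replicate 3, and that of the F test became 5 without day 0 replicate 1, day 0 replicate 2 or day 14 replicate 3. The F test call of CXCL14 was lost in 19 of 23 alternatives, that of IL15 in 11 of 22, that of TNFSF10 in 6 of 22 and that of TNFRSF1B in 4 of 23. Scaling to the hybridization controls instead moved the median over all probe sets by -0.38, and then 5 rose and 2 fell, with a median of 0.17 over the 28.

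**Figure D1:**
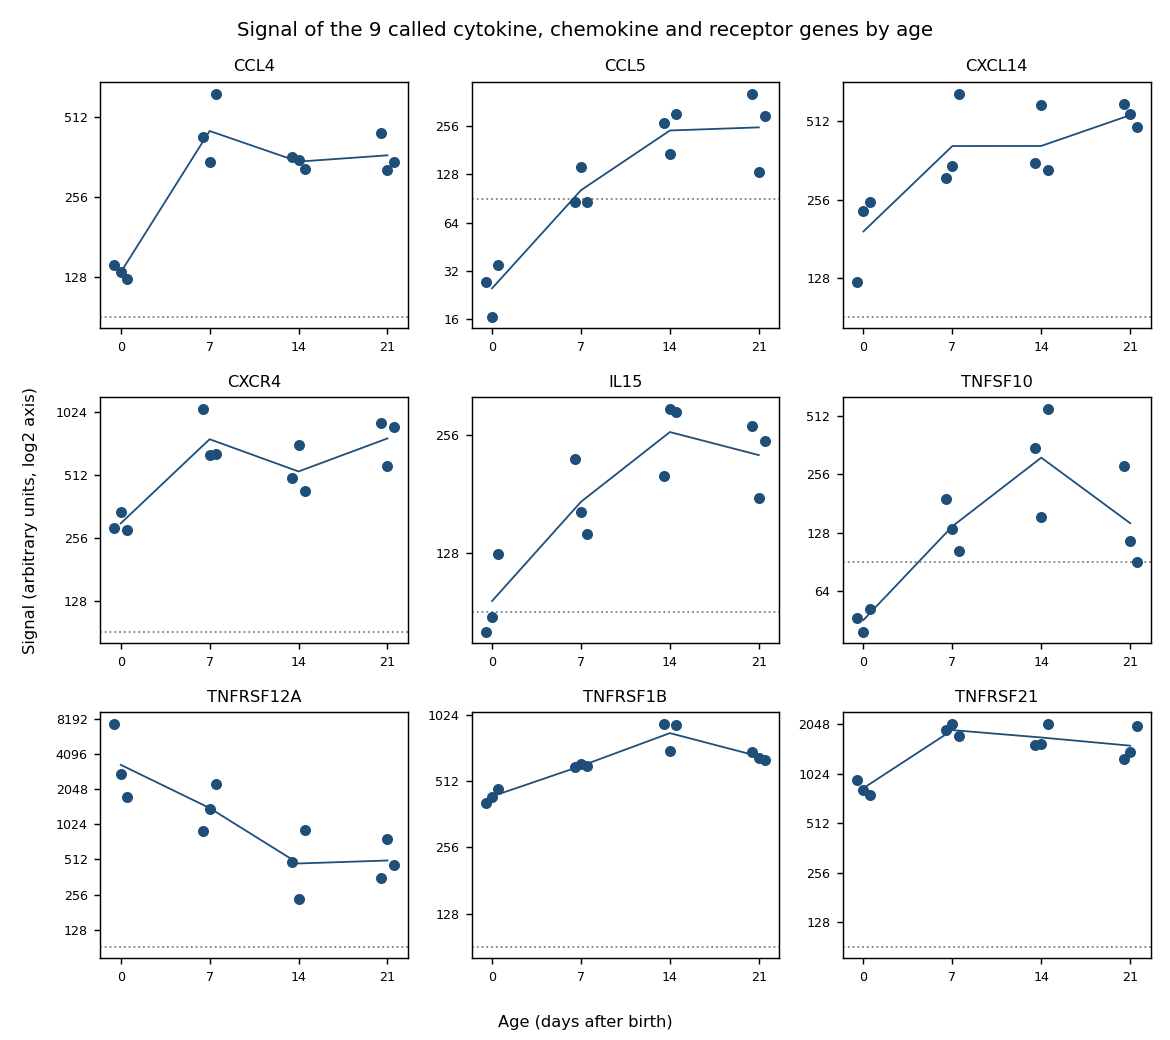
Signal (arbitrary units, log2 axis) against age in days for the 9 genes called between day 21 and day 0. Points are the 3 arrays of each age, shifted sideways to separate them, lines join the geometric means and the dotted line is the limit for dim probe sets at 90.3. In 8 panels the 3 day 0 points lie below all 9 later points, and in TNFRSF12A the day 0 points lie above those of day 21.

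In the first week fewer genes passed than over the 3 weeks, among the 28 as among all genes tested. From day 0 to day 7, 4 of the 28 genes rose (CCL4, CCL5, CXCR4 and TNFRSF21) and 0 fell, where 9.4% of all probe sets were called in either direction, 5.76% higher and 3.64% lower. That split of 829 higher and 524 lower turned to 358 and 1636 on the hybridization control scale and to 604 and 736 with median centring. Among all genes tested it was 11.7%, with 6.51% higher and 5.21% lower. Without day 0 replicate 3 the count was 7, with CXCL12, CXCL14 and IL15 joining, and with the poly-A ratio as a covariate it was 1, CCL4. From day 7 to day 14 and from day 14 to day 21 limma called 0 of the 28, where 1 of 14399 probe sets (0.00694%) and 0 (0%) were called. At an unadjusted p below 0.05 there were 6 and 1 of the 28 in these steps, where 5.95% and 3.03% of all probe sets were, and their lowest adjusted p-values were 0.713 and 0.9998.

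**Figure D2:**
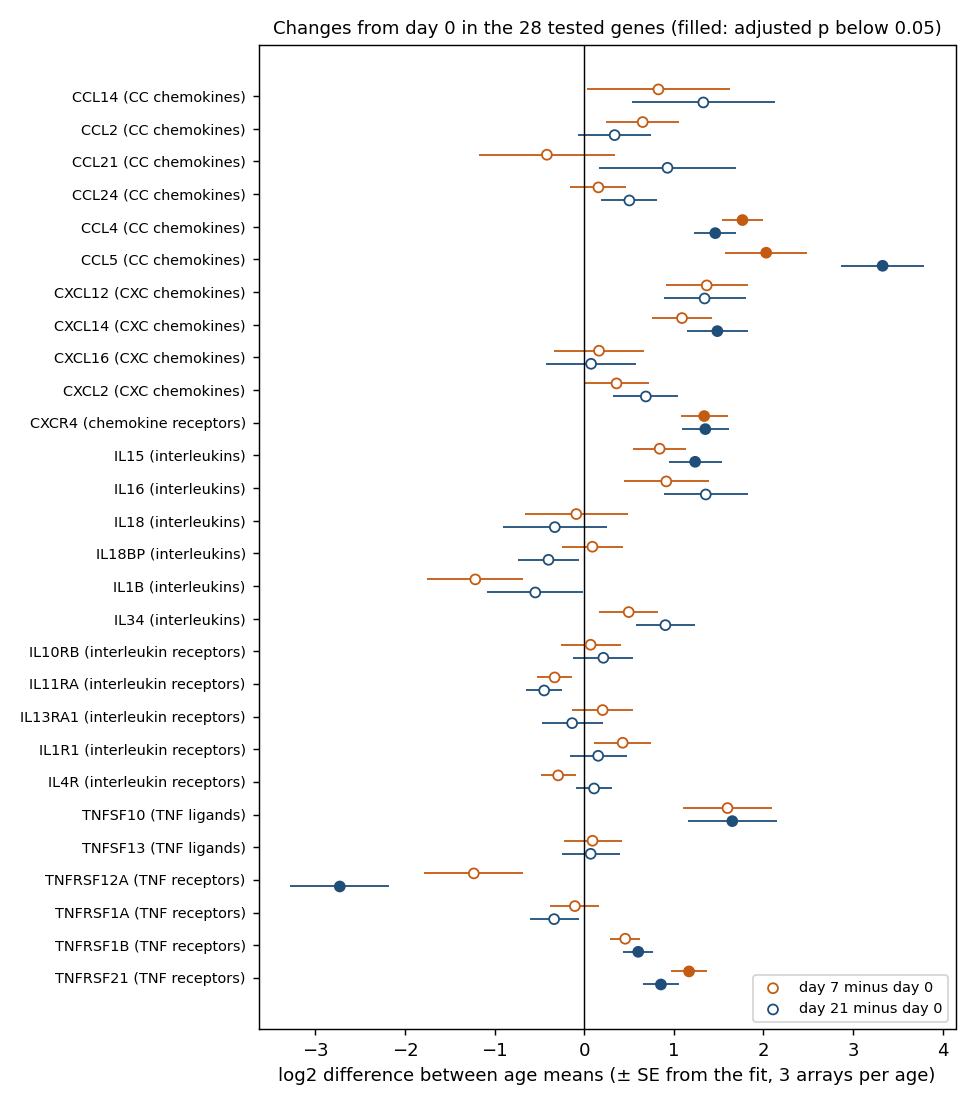
Log2 difference from day 0 at day 7 and at day 21 (points, ± SE from limma, 3 arrays per age) for the 28 tested genes, grouped by family. Filled points have an adjusted p below 0.05. Most points lie right of 0, and TNFRSF12A lies farthest left, at -2.73 for day 21.

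Among the CC chemokines, which attract mainly monocytes, T cells and eosinophils, 2 of the 6 tested genes rose and 0 fell by day 21. Counts by family can be read against 14.5% of all genes called at day 21, 7.36% higher and 7.1% lower. CCL5 (also called RANTES) attracts T cells and monocytes and is made in quantity by activated T and natural killer (NK) cells. Its signals were 27.2, 16.5 and 34.7 at day 0, 85.8, 143.1 and 86.5 at day 7, 266.2, 171.1 and 304.3 at day 14, and 408.2, 131.5 and 295 at day 21. Its 3 day 0 arrays were below every later array, and its day 7 arrays were below those of day 14, while days 14 and 21 overlapped. CCL5 rose by 3.33 ± 0.46 between day 0 and day 21 (limma adjusted p = 0.00136) and by 2.03 ± 0.46 in the first week (0.0182). The step from day 7 to day 14 was 1.24 ± 0.46 (0.760) and that from day 14 to day 21 was 0.06 ± 0.46 (0.9998). CCL5 was dim at day 0, so the size of its rise depends on values near background. With an offset of 29.7, which is the 20th percentile of signals, added to each value the change to day 21 was 2.36. The first-week call was lost without day 0 replicate 2 (1.73, limma adjusted p = 0.0584), without day 7 replicate 2 (1.79, 0.0762), in a fit of the 6 arrays alone (0.0966) and with the poly-A covariate (1.52, 0.212), while the call at day 21 held in all 23 alternatives that could be fitted.

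CCL4 (MIP-1beta), another chemokine made by activated white blood cells, also rose. Its signals were 141.4, 133.1 and 125.3 at day 0, 429.6, 344.9 and 626.2 at day 7, 363, 353.1 and 326.7 at day 14, and 443.4, 322.6 and 344.9 at day 21. The day 0 arrays lay close together and below all 9 others, and the 3 later ages overlapped. CCL4 rose by 1.77 ± 0.23 in the first week (limma adjusted p = 0.00134) and stood 1.46 ± 0.23 above day 0 at day 21 (0.00258), with steps of -0.38 ± 0.23 (0.906) and 0.08 ± 0.23 (0.9998) between. Both calls held in all 24 alternatives, where the change at day 21 lay between 1.08 and 1.56.

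The other 4 tested CC chemokines did not pass the test at any step. CCL24, which attracts eosinophils, had 498.4, 453.6 and 658.6 at day 21 and 335, 360.9 and 432.3 at day 0, values that did not overlap, with a day 21 difference of 0.50 ± 0.31 (limma adjusted p = 0.320). CCL14 varied widely within each age, for example 505, 726.8 and 154.1 at day 21 and 110.6, 84.1 and 383.5 at day 0, and its difference was 1.33 ± 0.80 (0.304). CCL21, which guides cells with the receptor CCR7 into lymphatic vessels, had a difference of 0.93 ± 0.76 (0.468). CCL2, which attracts monocytes, had a difference of 0.34 ± 0.41 (0.638), and 1 array, day 7 replicate 1 at 561.4, stood above its other 11, which ran from 143.2 to 294.7.

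Some CC chemokine genes are neighbours. On the pig assembly Sscrofa11.1, CCL4 lies next to CCL3L1, CCL14 follows with 2 protein-coding genes between, and CCL5 lies beyond it with 1 gene between. Of these 4 neighbours CCL4 and CCL5 rose, CCL14 was not called, and CCL3L1 was dim, with signals from 9 to 51. CC chemokines are close relatives, and whether their probe sets read each other's transcripts was not tested.

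Of the 4 tested CXC chemokines, 1 rose by day 21, where 7.36% of all genes did. CXCL14, a chemokine of epithelial and connective tissues, had signals of 123.5, 232.2 and 250.8 at day 0, 309, 343.6 and 654.8 at day 7, 354.1, 593.4 and 331.9 at day 14, and 597.4, 544.1 and 485.9 at day 21. All later arrays were above day 0, and the 3 later ages overlapped. It stood 1.49 ± 0.34 above day 0 at day 21 (limma adjusted p = 0.0145) and 1.09 ± 0.34 at day 7 (0.0608). Its second tested probe set gave 1.13 ± 0.35 at day 21, just short of the threshold (0.0504). The call was lost without day 21 replicate 1 (1.41, limma adjusted p = 0.0549), over a range of 0.0107 to 0.0549 in 24 alternatives.

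CXCL12 (SDF-1) keeps blood stem cells in the marrow and guides cells that carry its receptor CXCR4, among them muscle precursors. Its higher probe set had signals of 162.4, 772.8 and 758.5 at day 0, 1038.9, 1482.9 and 1060.2 at day 7, 898.1, 1388.1 and 1188.2 at day 14, and 990.1, 1194.4 and 1314.8 at day 21. All 9 later arrays were above day 0, where replicate 1 was far below the other 2. The day 21 difference was 1.34 ± 0.46 (limma adjusted p = 0.0736) and did not pass. The second probe set, with 306 to 550 at day 0, passed, at 1.26 ± 0.33 for day 21 (0.0253) and 1.59 ± 0.33 for day 7 (0.0112), so the call on this gene depends on which probe set is read. With the mean of both, CXCL12 passed at day 21 (1.30, 0.0300) and at day 7 (1.48, 0.0221). Day 0 replicate 1 decided the size for the higher probe set: without it the differences were 0.60 at day 21 (0.116) and 0.62 at day 7 (0.114). The higher probe set alone passed at day 21 without day 0 replicate 2 (1.72, 0.0468) or replicate 3 (1.71, 0.0315), with a replicate block (0.0392), and at day 7 without day 0 replicate 3 (1.73, 0.0332).

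CXCL2, which attracts neutrophils, had 98.4 to 126.7 at day 7, 180.8, 248.4 and 204.6 at day 14 and 122.3 to 170 at day 21, with day 14 above both neighbours, but neither step passed (0.87 ± 0.36, limma adjusted p = 0.786, and -0.54 ± 0.36, 0.9998). CXCL16, the ligand of CXCR6, had a day 21 difference of 0.08 ± 0.50 (0.942). It was dim at days 0, 7 and 21 but not at day 14, where its geometric mean was 141.5. CXCL2 was dim at day 0.

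**Figure D3:**
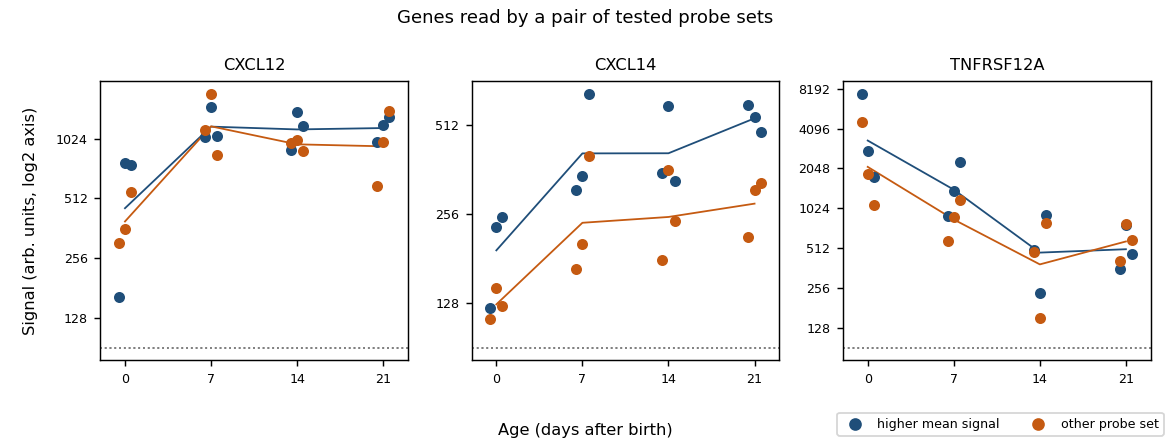
Signal (arbitrary units, log2 axis) against age in days for CXCL12, CXCL14 and TNFRSF12A, each read by a pair of tested probe sets drawn in different colours. Points are arrays, shifted sideways to separate them, lines join the geometric means of the 3 arrays per age and the dotted line is the limit for dim probe sets. Both probe sets of CXCL12 and CXCL14 are lowest at day 0, and both of TNFRSF12A are highest there.

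Only 1 of the 8 chemokine receptors was above the limit for dim probe sets. CXCR4, the receptor of CXCL12, is carried by white blood cells, vessels and muscle precursors. Its signals were 284.6, 338.8 and 279.5 at day 0, 1063.4, 637.7 and 643.2 at day 7, 496.9, 707.7 and 426.8 at day 14, and 908.8, 567.5 and 867.8 at day 21. Every later array was above every day 0 array, and the later ages overlapped. CXCR4 rose by 1.34 ± 0.26 in the first week (limma adjusted p = 0.00955) and stood 1.35 ± 0.26 above day 0 at day 21 (0.00682), with -0.51 ± 0.26 (0.851) and 0.53 ± 0.26 (0.9998) in the steps between. The call at day 21 held in all 24 alternatives. The first-week call was lost with the poly-A covariate (1.53, 0.0538).

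The other 7 chemokine receptors were dim, namely CCR1, CCR2, CCR3, CCR7, CCR9, CXCR6 and CCRL2. CCRL2, a receptor relative that binds chemerin and does not signal as chemokine receptors do, was dim over all arrays but only at day 0 among the ages. Its signals were 6.4, 10 and 30.7 at day 0, 138.5, 101.1 and 82.7 at day 7, 142, 84.4 and 75.6 at day 14, and 85.6, 71.9 and 213.8 at day 21, with all later arrays above day 0. CCR9, a receptor of gut-homing lymphocytes, had 70.6 to 106.6 at day 7 and 14 to 68.3 at day 0, which did not overlap, and 13.1 to 89.4 at days 14 and 21.

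Of the 6 tested interleukins, 1 rose and 0 fell by day 21, where 7.36% of all genes rose and 7.1% fell. IL15, which sustains NK and memory T cells and is made in quantity by skeletal muscle, had signals of 80.2, 87.6 and 127.4 at day 0, 222, 162.5 and 142.8 at day 7, 201.3, 298.8 and 293 at day 14, and 268.9, 176.3 and 247.6 at day 21. All later arrays were above day 0, by a narrow margin at day 7. IL15 stood 1.24 ± 0.30 above day 0 at day 21 (limma adjusted p = 0.0179), with weekly steps of 0.84 ± 0.30 (0.0927), 0.59 ± 0.30 (0.845) and -0.20 ± 0.30 (0.9998). The call was lost without day 0 replicate 2 (1.17, 0.0505), day 21 replicate 1 (1.12, 0.0728) or day 21 replicate 3 (1.18, 0.0663), in a fit of the 6 arrays alone (0.0705) and with the poly-A covariate (1.13, 0.0734).

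IL34, the second ligand of the macrophage receptor CSF1R, had 308.7, 153.6 and 198.7 at day 21 and 77.1, 147.9 and 125.7 at day 0, which did not overlap, and its difference was 0.91 ± 0.33 (limma adjusted p = 0.0901). IL16, which attracts CD4+ cells, had a difference of 1.36 ± 0.47 (0.0799), with 227.7, 148.3 and 238.8 at day 21 and 37.3, 166 and 77.6 at day 0, so that the ages overlapped. IL16 was dim at day 0, so its difference rests on values near background. IL1B, a fever-inducing cytokine of macrophages, had 182.7, 159.3 and 35.7 at day 7 and 285.4, 206.5 and 220.9 at day 0, which did not overlap, with a difference of -1.22 ± 0.54 (0.175) in the first week and -0.55 ± 0.54 (0.551) at day 21. IL18 and IL18BP, the secreted protein that binds and blocks it, had day 21 differences of -0.33 ± 0.58 (0.758) and -0.40 ± 0.34 (0.485). IL18 was dim at day 14.

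The 13 dim interleukins were IL1A, IL2, IL4, IL5, IL6, IL7, IL10, IL12A, IL12B, IL13, IL17A, IL17B and IL21. They include IL6, which contracting muscle releases, whose signals ran from 9.8 to 72.9 over the 12 arrays with all ages overlapping.

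Of the 5 tested interleukin receptors 0 passed the test in either direction, where 14.5% of all genes did at day 21. IL11RA, which binds IL-11, had 852.1, 799 and 724.6 at day 21 and 857.8, 1036.6 and 1406.4 at day 0, values that did not overlap, with a difference of -0.45 ± 0.20 (limma adjusted p = 0.163). On the hybridization control scale it was -0.83 and passed (0.0177). IL4R, the receptor chain shared by IL-4 and IL-13, had 555.2, 614 and 521.4 at day 14 and 311.6, 368.1 and 473.3 at day 7, which did not overlap, and the step of 0.57 ± 0.20 did not pass (0.734). Its partner IL13RA1 had a day 21 difference of -0.14 ± 0.34 (0.838), and its day 0 arrays spread from 366.7 to 1300.8. IL1R1 and IL10RB, receptor chains for IL-1 and IL-10, had differences of 0.16 ± 0.32 (0.795) and 0.21 ± 0.34 (0.727). The dim receptors were IL2RA, IL2RG, IL6R, IL7R, IL12RB2, IL18R1 and IL27RA.

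In the TNF family, 1 of 2 tested ligands and 2 of 4 tested receptors rose by day 21, and 1 receptor fell. Of all genes, 7.36% rose and 7.1% fell. TNFRSF12A (Fn14), the receptor of TWEAK, is raised in muscle by injury and loss of nerve supply and has no death domain. Its signals were 7502.2, 2776.1 and 1761.3 at day 0, 894.3, 1391.3 and 2273.3 at day 7, 491.2, 234.8 and 916.9 at day 14, and 357.5, 768.5 and 459.2 at day 21. The day 0 arrays were all above those of days 14 and 21 but overlapped day 7, and day 0 replicate 1 was the highest of the 12. TNFRSF12A fell by day 21 (-2.73 ± 0.55, limma adjusted p = 0.00816). The weekly steps of -1.23 ± 0.55 (0.184), -1.58 ± 0.55 (0.760) and 0.08 ± 0.55 (0.9998) did not pass. Its second probe set changed by -1.87 ± 0.57 and missed the threshold (0.0503). Without day 0 replicate 1 the fall was -2.14, and the first-week difference, which did not pass, was -0.64 (0.492). The call at day 21 held in all 24 alternatives, with adjusted p from 0.0037 to 0.0389.

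TNFRSF21 (death receptor 6) is a receptor with a death domain found in many tissues. Its signals were 940.4, 813.5 and 764.1 at day 0, 1893.9, 2042.7 and 1720.9 at day 7, 1529.2, 1549.5 and 2060.7 at day 14, and 1251.4, 1390 and 1991.7 at day 21. All later arrays were above day 0, and the later ages overlapped. It rose by 1.17 ± 0.20 in the first week (limma adjusted p = 0.00443) and stood 0.86 ± 0.20 above day 0 at day 21 (0.0155). The call at day 21 was lost without day 21 replicate 3 (0.66, 0.0694), in a fit of the 6 arrays alone (0.0723), on the hybridization control scale (0.48, 0.114) and with the poly-A covariate (0.82, 0.0582), which also ended the first-week call (1.12, 0.0589).

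TNFRSF1B (TNFR2), a TNF receptor of white blood cells and vessels, had signals of 407.5, 434.1 and 468.4 at day 0, 590.2, 609.1 and 596.5 at day 7, 931.7, 698.3 and 922.5 at day 14, and 694.4, 653.2 and 639.5 at day 21. No 2 neighbouring ages overlapped, with day 14 highest. It stood 0.60 ± 0.17 above day 0 at day 21 (limma adjusted p = 0.0341), with steps of 0.46 ± 0.17 (0.106), 0.49 ± 0.17 (0.713) and -0.35 ± 0.17 (0.9998). The call was lost in 12 of 24 alternatives, among them leaving out day 0 replicate 1 or 2, day 7 replicate 2 or any of the 3 day 21 arrays (0.55 to 0.63), median centring (0.50) and the hybridization control scale (0.22, 0.486). TNFRSF1A, the TNF receptor of most cells, had a difference of -0.34 ± 0.27 (0.464).

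TNFSF10 (TRAIL), an interferon-induced ligand of death receptors, had signals of 46.5, 39.5 and 51.8 at day 0, 191.8, 134 and 102.9 at day 7, 351.2, 154.6 and 556.8 at day 14, and 282.2, 115.6 and 90.6 at day 21. It was dim at day 0, with every later array above it, and varied widely at days 14 and 21. Its weekly steps of 1.60 ± 0.50 (limma adjusted p = 0.0615), 1.17 ± 0.50 (0.803) and -1.12 ± 0.50 (0.9998) did not pass. TNFSF10 stood 1.65 ± 0.50 above day 0 at day 21, barely past the threshold (limma adjusted p = 0.0482). The call was lost in 19 of 23 alternatives, including the offset (1.22, 0.0733) and leaving out any array of days 0, 7 and 21 or day 14 replicate 1, over a range of 0.0307 to 0.185. TNFSF13 (APRIL), which sustains plasma cells, had a difference of 0.07 ± 0.32 (0.914). The ligand TNFSF4 (OX40L), a signal to activated T cells, and the plasma cell receptor TNFRSF17 (BCMA) were dim, at 9.1 to 113.1 and 2.2 to 11.6.

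**Figure D4:**
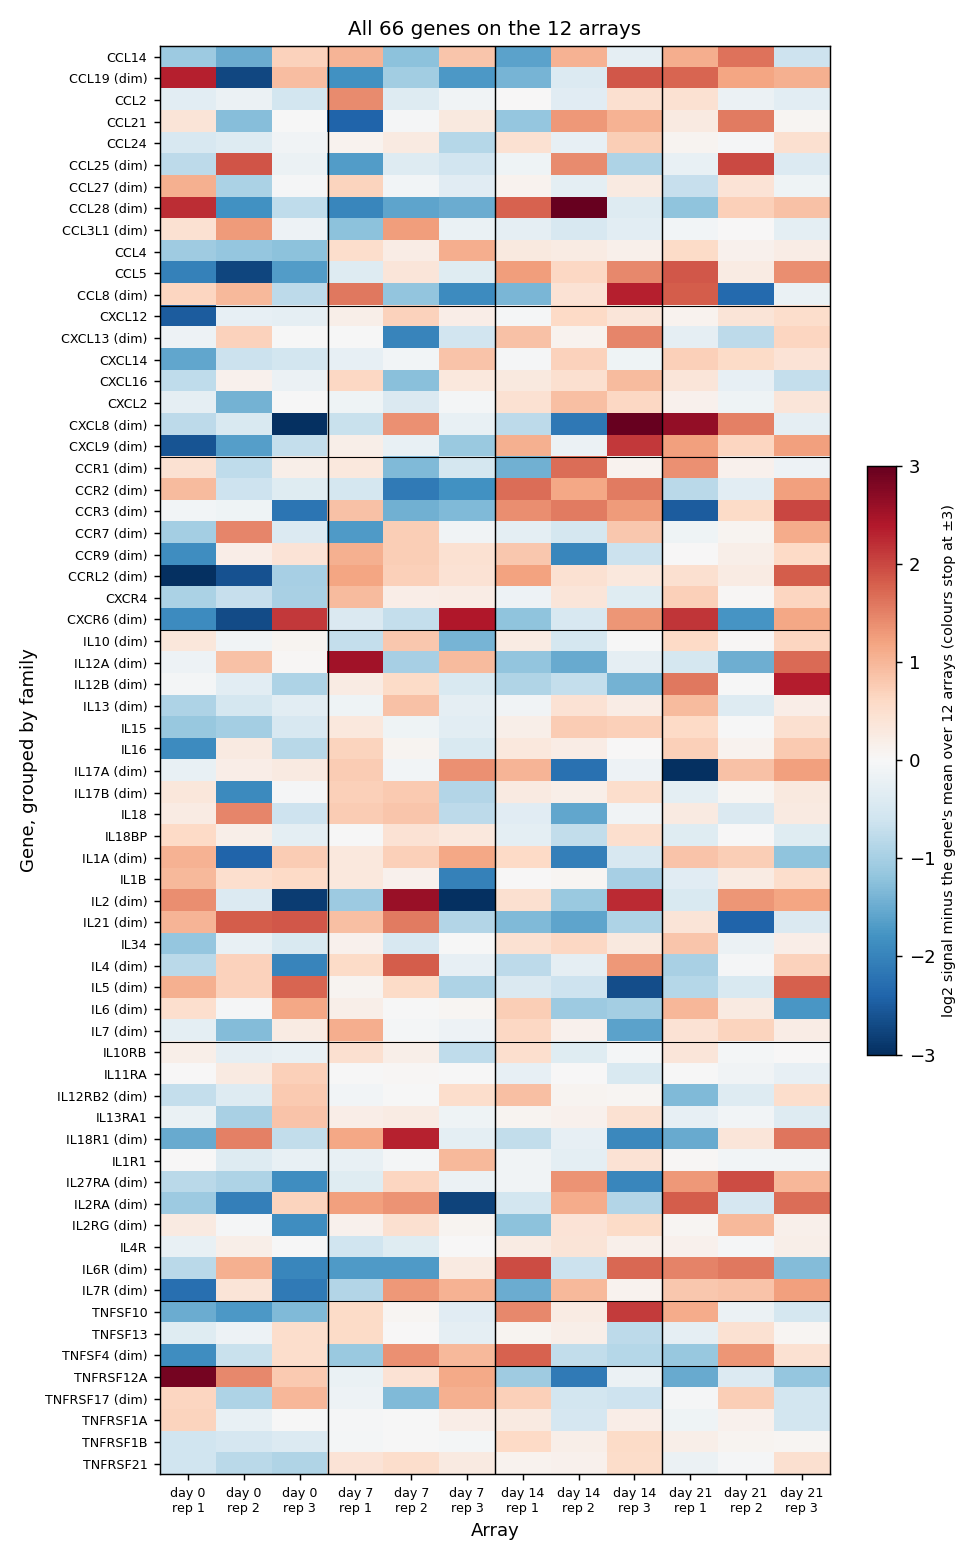
Log2 signal of all 66 genes on the 12 arrays, as the difference from each gene's mean (colour, stopping at ±3), with genes grouped by family and dim ones marked. The day 0 columns are blue in CCL4, CCL5, CXCL14, CXCR4, IL15, TNFSF10, TNFRSF1B, TNFRSF21 and the dim CCRL2, and red in TNFRSF12A.

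The 38 dim genes had signals from 0.3 to 272.1, and 24 of them never reached the limit of 90.3 on any array. The dim chemokines were CCL3L1, CCL8, CCL19, CCL25, CCL27, CCL28, CXCL8, CXCL9 and CXCL13. CXCL9, an interferon gamma-induced attractant of T cells, was dim at days 0 and 7 but not at days 14 and 21, with signals of 10.3, 19.9 and 37.8 at day 0, 70.2, 53.7 and 29 at day 7, 131.3, 55 and 272.1 at day 14, and 145.8, 97.1 and 147.5 at day 21. In a fit with no filter, 2 of the 38 passed at day 21 and 1 at day 7. Over all 23999 probe sets, bright ones included, 6.02% and 4.25% did. The share among dim probe sets alone was not computed, so these counts are not read as particular to the 38 genes. CXCL9 was 2.69 ± 0.66 above day 0 at day 21 (limma adjusted p = 0.0288), and CCRL2 was 3.13 ± 0.64 above it (0.0117) and 3.07 ± 0.64 at day 7 (0.0174). With the offset of 29.7 the day 21 differences were 1.63 and 1.68. Leaving out day 0 replicate 1 (2.22, limma adjusted p = 0.0884), day 0 replicate 2 (0.0682) or any day 21 array (0.0505 to 0.103) ended the CXCL9 call. The CCRL2 call at day 21 was lost without day 21 replicate 3 (2.65, 0.0675), while leaving out day 0 replicate 1 (0.0502), day 0 replicate 2 (0.0538), day 7 replicate 1 (0.0773) or day 7 replicate 2 (0.0654) ended the call at day 7.

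Partners of these signals that the naming rule does not reach were read from lists. Of 13 tested cytokines and receptors with other names 4 rose by day 21 and 0 fell. Of all genes tested, 7.36% rose and 7.1% fell. The list median was 0.26 against 0.02 over all probe sets. IFNGR1, a chain of the interferon gamma receptor, rose by 0.93 ± 0.20 (limma adjusted p = 0.00992). KIT, the stem cell factor receptor, rose by 1.58 ± 0.38 (0.0190), and the growth hormone receptor GHR by 0.93 ± 0.24 (0.0268). CD74, a receptor of the cytokine MIF and the chaperone of MHC class II, rose by 1.25 ± 0.33 (0.0273). The 14 dim genes of this list included TNF, IFNG, LTA, LTB and FASLG.

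In the signalling chains below the receptors the counts called can be read against 14.5% of all genes at day 21 and 11.7% at day 7. Of 14 tested genes of TNF receptor, IL-1 receptor and NF-kB signalling, 2 rose by day 21 and 0 fell, with a median of 0.06. CASP8, the caspase that death receptors activate, had 218.9, 166.9 and 138.5 at day 21 and 58, 61.1 and 76.9 at day 0, and rose by 1.40 ± 0.28 (limma adjusted p = 0.00713). CFLAR, which blocks that caspase, rose by 0.54 ± 0.16 (0.0431), while TNIP1, a brake on NF-kB, at 0.73 ± 0.24 (0.0668), and FADD, the adaptor between death receptors and CASP8, at -0.44 ± 0.20 (0.167), did not pass. Of 13 JAK-STAT and SOCS genes 0 passed, with a median of 0.07 and STAT5A (1.02 ± 0.40, 0.119), STAT6 (-1.03 ± 0.45, 0.158), the phosphatase PTPN1 (-0.65 ± 0.29, 0.170) and STAT2 (0.56 ± 0.27, 0.202) lowest in p. Of 12 genes of chemokine receptor signalling 0 passed at day 21, with a median of 0.44, led in p by ELMO1, which helps to start cell migration (0.99 ± 0.30, 0.0507), the small GTPase CDC42 (0.48 ± 0.17, 0.0823), the kinase PIK3CG (1.30 ± 0.47, 0.0875) and the G protein GNAI2 (0.41 ± 0.16, 0.110). At day 7, 2 of these 12 had passed, ELMO1 (1.20 ± 0.30, 0.0281) and CDC42 (0.63 ± 0.17, 0.0351).

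Markers of cells that make or carry these signals were read in the same way, against 14.5% of all genes called at day 21. All 12 T and NK lymphocyte markers on the array, CD3E, CD8A and PRF1 among them, were dim. Their summed signal ran from 234.5 to 447.5 at day 0 and 326.5 to 524.6 at day 7. It was 499.9 to 723.3 at day 14 and 457.5 to 748.6 at day 21. Days 14 and 21 lay above day 0 and day 7 overlapped it. Since every gene in this sum was dim, it cannot show when such cells changed in number. Such sums weigh the brightest genes of a list most. Of 9 tested macrophage and monocyte markers 1 rose by day 21 and 0 fell, LAPTM5 at 1.55 ± 0.32 (limma adjusted p = 0.00944), while MRC1 (-1.01 ± 0.32, 0.0584), CD163 (-0.93 ± 0.41, 0.161) and C1QC (0.81 ± 0.39, 0.198) did not pass. The sum over all 13 on the array was 2711.3 to 5064.6 at day 21 and 2349 to 3473.7 at day 0, which overlap.

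Of 11 endothelial markers 3 rose by day 21 and 1 fell, with CDH5 at 1.22 ± 0.23 (limma adjusted p = 0.00598), CLDN5 at 1.10 ± 0.26 (0.0171), TIE1 at 0.86 ± 0.25 (0.0445) and ENG at -1.06 ± 0.20 (0.00555). Their summed signal was 6294.6 to 7143.9 at day 0, 9993.1 to 11222.5 at day 7 and 7447.6 to 10921.4 at day 21. It lay above day 0 at each later age. The summed signal of the chemokine receptor signalling list did so too, with at most 7745 at day 0 and at least 7914 later. So did that of the partner cytokines and receptors, with at most 7812.9 at day 0 and at least 8377.2 later. PECAM1 and CDH5 gave 3204.2 and 2338.3 of the 9993.1 on day 7 replicate 1. At day 7, 3 of the 11 markers were called higher, 1 lower and 7 not. Of 8 fibroblast markers 0 rose and 1 fell, DPT at -1.66 ± 0.39 (0.0167), with FAP (0.93 ± 0.35, 0.104), THY1 (0.65 ± 0.48, 0.411) and COL6A3 (-0.40 ± 0.32, 0.463) not passing. Of 4 erythroid markers 2 rose and 1 fell by day 21, ALAS2 at 1.40 ± 0.27 (0.00656), HBM at 0.78 ± 0.23 (0.0399) and HBB at -0.84 ± 0.24 (0.0349), while AHSP was at 1.47 ± 0.81 (0.262). The B lymphocyte marker JCHAIN (-0.69 ± 0.47, 0.371) and the granulocyte marker S100A9 (-0.91 ± 1.16, 0.657) were the ones tested of their lists, with CD79B and 6 granulocyte markers dim. Of 17 skeletal muscle markers 8 rose and 0 fell, among them MYH2 (2.74 ± 0.28, 0.000482), TNNT1 (1.37 ± 0.23, 0.00344), TNNC1 (1.11 ± 0.20, 0.00517) and RYR1 (0.90 ± 0.19, 0.00872). The part of these cell types in the changes of the cytokine genes was not tested.

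**Figure D5:**
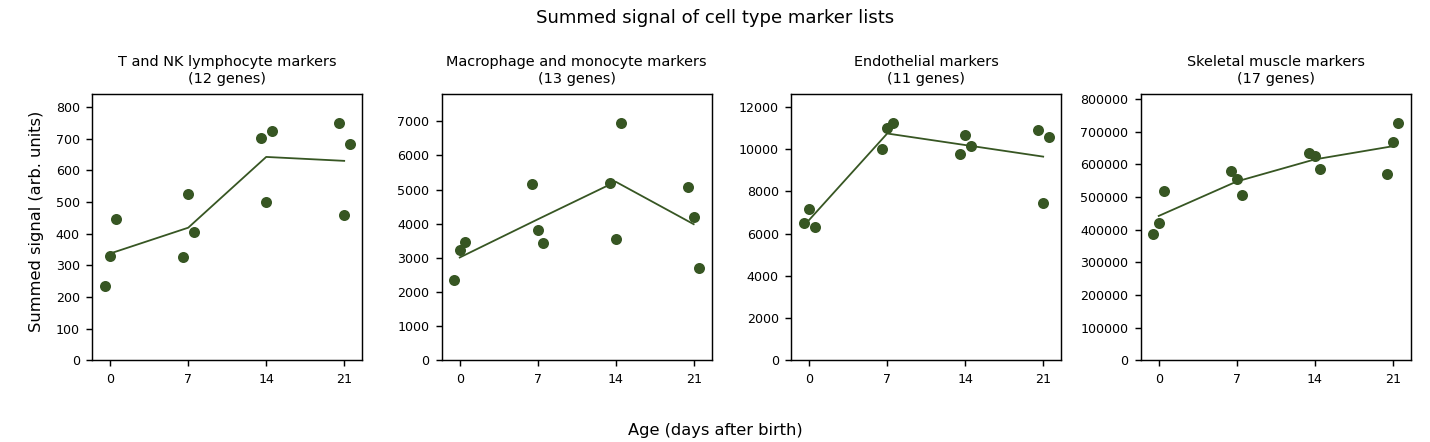
Summed signal (arbitrary units) of the marker genes on the array for T and NK lymphocytes, macrophages and monocytes, endothelium and skeletal muscle against age in days. Points are arrays, shifted sideways to separate them, and lines join the means of the 3 arrays per age. The day 0 sums of the endothelial list lie below those of all later arrays, and those of the macrophage list overlap day 21.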

How the data were processed

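Gene expression was measured on Affymetrix porcine arrays from 12 samples of total RNA. Per the submitters' processing notes, the authors computed the deposited linear signal intensities with MAS5, in a version not given in the sources used here; detection calls were not used here. Signals were taken as log2 with no offset. Of 24123 probe sets, 124 controls and the dimmest 40% by their mean log2 values were removed, and 14399 were fitted in limma 3.58.1 (R 4.3.3) with 1 mean per age and a mean-variance trend, with an F test and 4 contrasts at a Benjamini-Hochberg adjusted p of 0.05. Symbols came from the platform annotation, and all 66 current symbols matched by Entrez identifier. The rule named all called members, the 3 of highest signal in each family, CCL5 and TNFRSF12A, and up to 4 of each other list in order of p. Values of the remaining tested members and of CCL3L1, CXCL9, IL6, IL21 and TNFRSF17 were added after they were seen, as were the dim genes picked out from the other lists. The members and lists were chosen with earlier results of these data known. Alternatives were other filters, scalings, an offset, variance models, array weights, a poly-A covariate, a replicate block, the mean of probe sets, 6 arrays alone and leaving out each array; for CCRL2 and CXCL9 the fit with no filter combined with the offset or a left-out array was chosen after seeing the data. Same-numbered arrays of different ages did not deviate together (correlation above 0.1 in 2 of 18 pairs), so the numbers were not taken as pairs. The fits were tested on simulated data. The labels call the replicates biological. The number of arrays limits precision. Plots used matplotlib 3.10.9.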

Additional observations from a re-analysis of the deposited data

Results flagged for a closer look

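CCRL2, the atypical chemokine receptor relative left out of the tests as dim, stood out because its 9 later arrays all exceeded its 3 day 0 arrays, at 71.9 to 213.8 and 6.4 to 30.7. The day 21 mean lay 3.13 above day 0 on the log2 scale, or 1.68 with the offset. Among the 9600 probe sets left out, 1.34% were above day 0 on all later arrays.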

How the results depend on the processing

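No called result reversed under any alternative. Of the comparisons of single named genes with their alternatives, 2240 stayed on the same side of the threshold, 91 lost and 14 gained a call. The 2240 include genes and steps that were not called to begin with and so had no call to lose. Among the calls themselves, losses ran from 0 of 24 alternatives for CCL4 at day 21 to 19 of 23. The latter held for CXCL14 in the F test and TNFSF10 at day 21. The number of members called was 9 at day 21 and in the F test and 4 at day 7; it became 5 at day 21 with the 6 arrays alone, and 1 at day 7 and 2 in the F test with the poly-A covariate. Leaving out 1 array gave 5 to 9 at day 21, 3 to 7 at day 7, 5 to 9 in the F test and 0 in the later weekly steps. With the replicate block the counts were 9, 5 and 7, and TNFRSF1B lost its day 21 call (0.0561). Over all probe sets the counts at day 21, day 7 and in the F test were 1657, 1353 and 1278. They became 948, 222 and 215 with the poly-A covariate and 590 and 477 with the 6 arrays alone. Leaving out 1 array gave 789 to 2023, 493 to 1669 and 566 to 1387. The F test count was 818 without a variance trend and 761 with array weights. Scaling on the hybridization controls gave 2105 in the F test and, at day 21, 2883, of which 397 were higher and 2486 lower, against 952 and 705. From day 7 to day 14 the count of 1 varied from 0 to 3. Leaving out arrays also lowers the number of samples, and the causes of these differences were not tested. Signals near background make the folds of CCL5, TNFSF10, CCRL2 and CXCL9 depend on the offset.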

Other observations

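Among the 19 chemokines, dim ones included, 6 had their highest signal on the same array, day 14 replicate 3 (31.6%, against 8.07% of all 6765 genes). They were CCL8 (134), CCL24 (776), CXCL8 (44.8), CXCL9 (272.1), CXCL13 (193.9) and CXCL16 (182.1). TNFSF10 was also highest there (556.8), as was the summed signal of the macrophage and monocyte markers, at 6945.2 against 2349 to 5208.1 on the other 11 arrays. On day 14 replicate 3, C1QC and C1QA gave 2957.6 and 1005.7 of that sum. The genes were singled out after their values were seen, and no cause was tested.

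IL21, a cytokine of helper T cells, had signals of 36.4, 63.2 and 64.9 at day 0, 33.3, 52.3 and 9.7 at day 7, 7.2, 6 and 9.4 at day 14 and 23.3, 3.4 and 13.3 at day 21. All of these lie below the limit for dim probe sets, and in the fit with no filter the day 21 difference did not pass (-2.38 ± 0.88, limma adjusted p = 0.138).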
